A study of Homo sapiens with 3 samples.

Results

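The genes described here encode the VEGF ligands VEGFA, VEGFB, VEGFC and PGF, the receptor tyrosine kinases FLT1, KDR and FLT4, and the neuropilins NRP1 and NRP2. They were chosen by name, and all 9 were found once among the 50867 genes of the deposited table. The cells were UM-UC-3, a human cell line grown from a bladder tumour, sequenced as 3 libraries of polyA+ RNA. The shControl library (n = 1) carries a scramble short hairpin RNA, and the shBLACAT2 group (n = 2) has 1 library for each of 2 hairpins, called shRNA 1 and shRNA 2, directed at BLACAT2, a long non-coding RNA. In every library the hairpin came from a lentivirus and the cells had been kept in puromycin for 2 weeks, so each library is a selected stable population. Nothing in the labels describes repeat cultures, and p-values therefore measure only the spread between these libraries.

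VEGF ligands are secreted dimers that signal through receptor tyrosine kinases, best known on the endothelial cells that line vessels. VEGFA binds FLT1 and KDR and drives growth of blood vessels, VEGFB and PGF bind FLT1, and VEGFC acts through FLT4, and through KDR once its propeptides are cut, to drive growth of lymphatic vessels. Neuropilins are co-receptors without a kinase domain that bind VEGF ligands and class 3 semaphorins. NRP1 is mostly linked to arteries and VEGFA, and NRP2 to veins, lymphatic vessels and VEGFC. Tumour cells commonly make the ligands and neuropilins, and the study asked which genes depend on BLACAT2.

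The libraries held 16424422, 17670199 and 16216947 counts in shControl, shRNA 1 and shRNA 2. The target gene, listed as LINC00958, had 938, 816 and 1062 counts in that order. Scaled for depth and composition, the level was 73.5% of the control in the library labelled shRNA 1 and 99.6% in the library labelled shRNA 2, with an adjusted p of 0.913 by edgeR's quasi-likelihood test. The counts therefore do not show the depletion named on the label of shRNA 2, and directions below are those of labelled libraries. Of 15 urothelial and epithelial markers, 11 had at least 10 counts in every library, among them KRT7 (19944, 20236 and 13229) and KRT8 (12281, 16188 and 9813). KRT20 had no count, and UPK1A and UPK3A, which mark the umbrella cells of the bladder lining, had at most 1. The other uroplakins of this list, UPK1B (306, 2311 and 923) and UPK2 (35, 108 and 104), were at least 2-fold above the control with both hairpins. So was the adhesion gene CDH1 (1877, 5201 and 4565), and the basal factor TP63 (85, 8 and 13) was as far below it. Of the 12 tested markers 3 were thus that far above and 1 that far below, against 5.29% and 4.5% of all genes. The other 8 were neither, among them KRT5 (0.998 of the control with shRNA 1 and 0.269 with shRNA 2) and KRT19 (2.16 and 0.813).

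The genes lie on 8 chromosomes and share no locus. On hg38 the positions in the table are chromosome 6, 43770184 to 43786487 for VEGFA, chromosome 11, 64234538 to 64238793 for VEGFB, chromosome 4, 176683538 to 176792727 for VEGFC and chromosome 14, 74941834 to 74955784 for PGF. The receptors lie at chromosome 13, 28300344 to 28495128 (FLT1), chromosome 4, 55078477 to 55125589 (KDR) and chromosome 5, 180601506 to 180649624 (FLT4). The neuropilins lie at chromosome 10, 33177492 to 33336262 (NRP1) and chromosome 2, 205681990 to 205798133 (NRP2). All 9 are protein-coding in GENCODE release 29. Antisense genes overlap VEGFA, VEGFC, KDR, NRP1 and NRP2 there. Those that overlap VEGFC, KDR, NRP1 and NRP2 had at most 4 counts in any library, far below the counts of VEGFC, NRP1 and NRP2, and the one at VEGFA was not analysed here.

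Upstream sequences are shown for VEGFC and NRP2, the members at least 2-fold below the control with both hairpins, and for KDR, a receptor of VEGFC that took opposite directions. They are the 250 bases before the RefSeq transcription start on GRCh38.p14, written 5′ to 3′ on the gene's strand, with GC boxes (GGGCGG or its complement CCGCCC) in capitals. They cover chr4:176792923-176793172 on the minus strand (VEGFC), chr2:205682251-205682500 on the plus strand (NRP2) and chr4:55125596-55125845 on the minus strand (KDR). The NRP2 stretch lies inside the gene as the table bounds it, since the table starts the gene further upstream.
VEGFC: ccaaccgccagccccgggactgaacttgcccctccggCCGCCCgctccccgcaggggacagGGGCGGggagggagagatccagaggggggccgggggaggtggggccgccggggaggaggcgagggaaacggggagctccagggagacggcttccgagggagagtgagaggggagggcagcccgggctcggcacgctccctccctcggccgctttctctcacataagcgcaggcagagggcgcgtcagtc
NRP2: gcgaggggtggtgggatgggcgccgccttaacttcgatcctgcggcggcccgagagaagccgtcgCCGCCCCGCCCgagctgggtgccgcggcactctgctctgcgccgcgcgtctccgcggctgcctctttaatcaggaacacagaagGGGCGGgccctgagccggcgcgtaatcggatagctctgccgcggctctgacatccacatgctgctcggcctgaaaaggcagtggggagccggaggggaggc
KDR: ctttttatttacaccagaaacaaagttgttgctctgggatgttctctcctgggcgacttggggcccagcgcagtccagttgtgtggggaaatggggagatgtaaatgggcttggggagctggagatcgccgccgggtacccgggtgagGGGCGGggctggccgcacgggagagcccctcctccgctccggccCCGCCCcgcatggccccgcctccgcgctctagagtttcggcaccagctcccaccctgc

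All 3 stretches are rich in G and C, with 74% for VEGFC, 70% for NRP2 and 65.2% for KDR, against a median of 58% over 35116 promoters of this length. They hold 22, 29 and 17 CG dinucleotides, against a median of 11. GC boxes were found 2 times for VEGFC, 3 times for NRP2 and 2 times for KDR, overlapping copies included and on both strands, and 42.6% of all promoters hold at least 1. No TATA box (TATAAA), E-box of the form CACCTG or AP-1 motif (TGANTCA) was found in these 3 windows on either strand, and 10.7%, 17.5% and 6.57% of all promoters hold them. The hypoxia core motif GCGTG, read on both strands, occurred 1 time for VEGFC and 0 times for NRP2 and KDR, against 32.2% of all promoters, and the form ACGTG in none of the 3, against 18.5%. VEGFB, which took opposite directions, had 82.8% G and C and 6 GC boxes. Entries were found for 6 of the 9 genes, and VEGFA, FLT4 and NRP1 had none.

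Among the ligands, VEGFC was lower with both hairpins while the other 3 took opposite directions with shRNA 1 and shRNA 2. VEGFC, the lymphatic growth factor, had 1205, 449 and 386 counts in shControl, shRNA 1 and shRNA 2, or 79.4, 25.0 and 22.4 CPM (counts as a share of library size, scaled by edgeR's TMM factors). It was 0.315 of the control with shRNA 1 (95% counting interval 0.282 to 0.351) and 0.282 with shRNA 2 (0.251 to 0.316). The 2 hairpin libraries stood close together, with a ratio of shRNA 2 to shRNA 1 of 0.895 (interval 0.779 to 1.03). The log2 fold over the control was −1.74 ± 0.11 (SD, n = 2). VEGFA, the main factor of blood vessel growth, had 1226, 1051 and 2429 counts, or 80.8, 58.5 and 141 CPM. It was 0.724 of the control with shRNA 1 (interval 0.667 to 0.787) and 1.74 times the control with shRNA 2 (1.63 to 1.87). Its mean log2 fold of 0.17 ± 0.89 (SD, n = 2) was smaller than the spread between the hairpins. In the control VEGFA and VEGFC had nearly the same number of counts, and with shRNA 2 VEGFC had the fewer by far.

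VEGFB, a ligand linked to fatty acid handling in muscle and heart, had 505, 423 and 647 counts, or 33.3, 23.5 and 37.5 CPM. It held 70.8% of the control level with shRNA 1 (ratio 0.708, interval 0.621 to 0.807) and 113% with shRNA 2 (ratio 1.13, interval 1.00 to 1.27). PGF, placental growth factor, was counted far less, with 103, 40 and 183 counts, or 6.79, 2.23 and 10.6 CPM. It was 0.328 of the control with shRNA 1 (0.222 to 0.477) and 1.56 times the control with shRNA 2 (1.22 to 2.01). VEGFA, VEGFB and PGF thus had their lowest value with shRNA 1 and their highest with shRNA 2, and the control lay between. VEGFD, the remaining ligand of lymphatic vessels, had no count in any library.

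**Figure D1:**
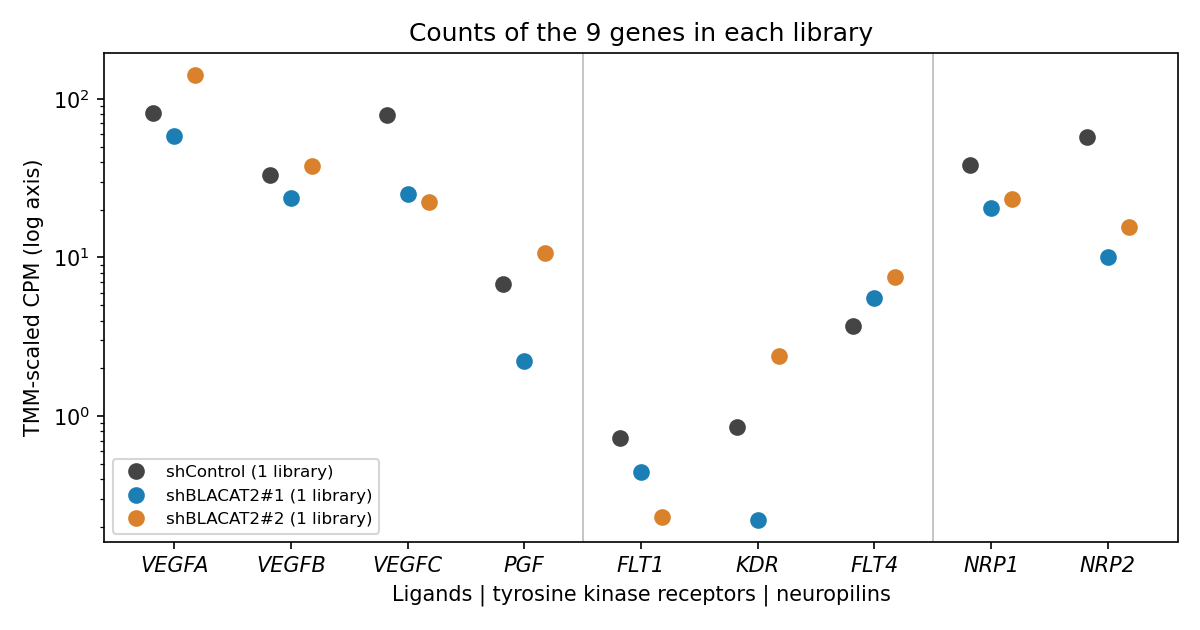
TMM-scaled CPM (log axis) of the 9 genes in shControl, shBLACAT2#1 and shBLACAT2#2, 1 point for each library, with ligands, receptors and neuropilins separated by vertical lines. VEGFC, NRP1, NRP2 and the sparse FLT1 are highest in the control, and VEGFA (80.8, 58.5 and 141 CPM), VEGFB, PGF, KDR and FLT4 are highest with shRNA 2.

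The receptor tyrosine kinases were sparsely counted in all 3 libraries. FLT1, which encodes VEGFR1, had 11, 8 and 4 counts, stayed under the mean of 1 CPM asked of a tested gene, and its ratios of 0.615 (0.215 to 1.68) and 0.320 (0.0743 to 1.08) were not distinguishable from the control at this depth. KDR, which encodes VEGFR2, had 13, 4 and 41 counts, or 0.856, 0.223 and 2.38 CPM. Its ratio to the control was 0.260 with shRNA 1 (0.0618 to 0.842) and 2.77 with shRNA 2 (1.46 to 5.64), intervals that lie on opposite sides of the control. FLT4, which encodes VEGFR3, the receptor of VEGFC, had 56, 100 and 129 counts, or 3.69, 5.57 and 7.47 CPM. It stood above the control with both hairpins, at 1.51 times (1.08 to 2.13) and 2.03 times (1.47 to 2.82). Averaged over the hairpins its log2 fold was 0.79 ± 0.30 (SD, n = 2), and edgeR's quasi-likelihood test gave an adjusted p of 0.754. FLT4 was the 1 tested member above the control with both hairpins, while its ligand gene VEGFC was below it with both.

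Both neuropilins had less RNA in the libraries labelled shRNA 1 and shRNA 2 than in the control, NRP2 by more than NRP1. NRP2 had 870, 182 and 267 counts in the same order, or 57.3, 10.1 and 15.5 CPM. This was 17.7% of the control level (ratio 0.177, interval 0.150 to 0.208) and 27.0% (ratio 0.270, interval 0.234 to 0.310). Averaged over the hairpins the log2 fold was −2.18 ± 0.43 (SD, n = 2). NRP1 had 579, 368 and 404 counts, or 38.1, 20.5 and 23.4 CPM. It held 53.7% of the control level (ratio 0.537, interval 0.470 to 0.613) and 61.4% (ratio 0.614, interval 0.539 to 0.698), a mean log2 fold of −0.80 ± 0.14 (SD, n = 2). The count ratio of NRP2 to NRP1, which does not depend on the scaling of the libraries, was above 1 in the control and 0.495 and 0.661 in the hairpin libraries. It was 3.04-fold lower with shRNA 1 (ratio 0.329, interval 0.268 to 0.405) and 2.27-fold lower with shRNA 2 (0.440, interval 0.365 to 0.530).

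**Figure D2:**
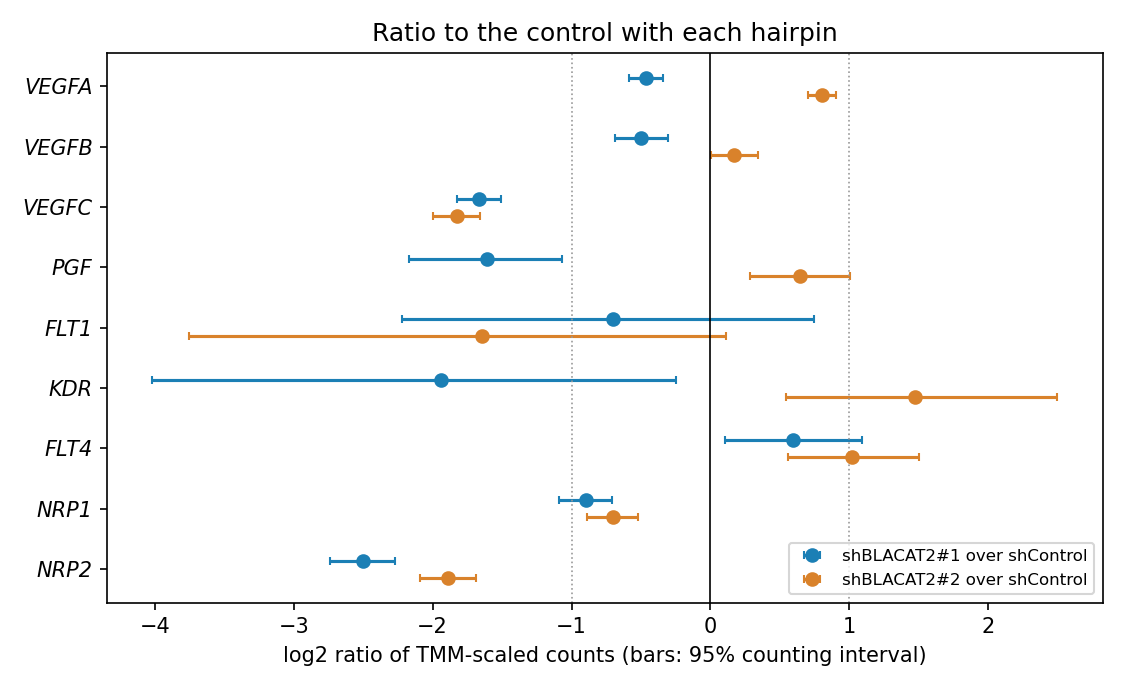
Log2 ratio of TMM-scaled counts to shControl for each gene with shBLACAT2#1 and shBLACAT2#2, with 95% counting intervals as bars and dotted lines at 2-fold. VEGFC, NRP1 and NRP2 lie below 0 and FLT4 above 0 with both hairpins, and VEGFA, VEGFB, PGF and KDR lie on opposite sides of 0.

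By size, 2 of the 8 tested members, VEGFC and NRP2, were at least 2-fold below the control with both hairpins and none was above it by that size. Over all 15132 genes tested, 4.5% were that far below and 5.29% that far above, 9.79% in all. With shRNA 1 alone 4 members (VEGFC, NRP2, PGF and KDR) were at least 2-fold below the control, against 7.38% of all genes, and none was as far above, against 7.92%. With shRNA 2 alone 2 were (VEGFC and NRP2), against 8.76%, and KDR was at least 2-fold above, against 13%. The median log2 fold of the 8 members was −1.20 with shRNA 1 and 0.40 with shRNA 2, against 0.01 and 0.04 over all genes. The hairpins took opposite signs for 4 of the 8 members (VEGFA, VEGFB, PGF and KDR), against 28.8% of all genes. Both hairpins were compared with the same control library, so the error of that library enters both folds.

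The group test, edgeR's quasi-likelihood test with Benjamini-Hochberg adjustment over all genes, passed no member, and 6 of 15132 genes (0.0397%). It gave NRP2 a log2 fold of −2.16 (SE 0.39, adjusted p = 0.134) and VEGFC −1.74 (SE 0.30, adjusted p = 0.132), the 2 members with an unadjusted p below 0.05, which 10.2% of all genes had. DESeq2 passed the same 2 members, at adjusted p = 0.00342 for NRP2 and 0.0116 for VEGFC. It passed 531 genes (3.51% of all genes tested), and those passing as lower made up 1.94% of all genes tested. Over all alternatives the adjusted p ran from 0.00342 to 0.747 for NRP2 and from 0.0116 to 0.747 for VEGFC. limma passed 0 members and 0 genes, with 9.41% of genes at an unadjusted p below 0.05. NRP1 had an adjusted p of 0.511 by edgeR, and VEGFA, VEGFB, PGF and KDR lay between 0.924 and 0.988. The test has 1 residual degree of freedom and assumes that the lone control varies like the hairpin libraries. An exact permutation test of 1 library against 2 cannot go below p = 0.333.

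**Figure D3:**
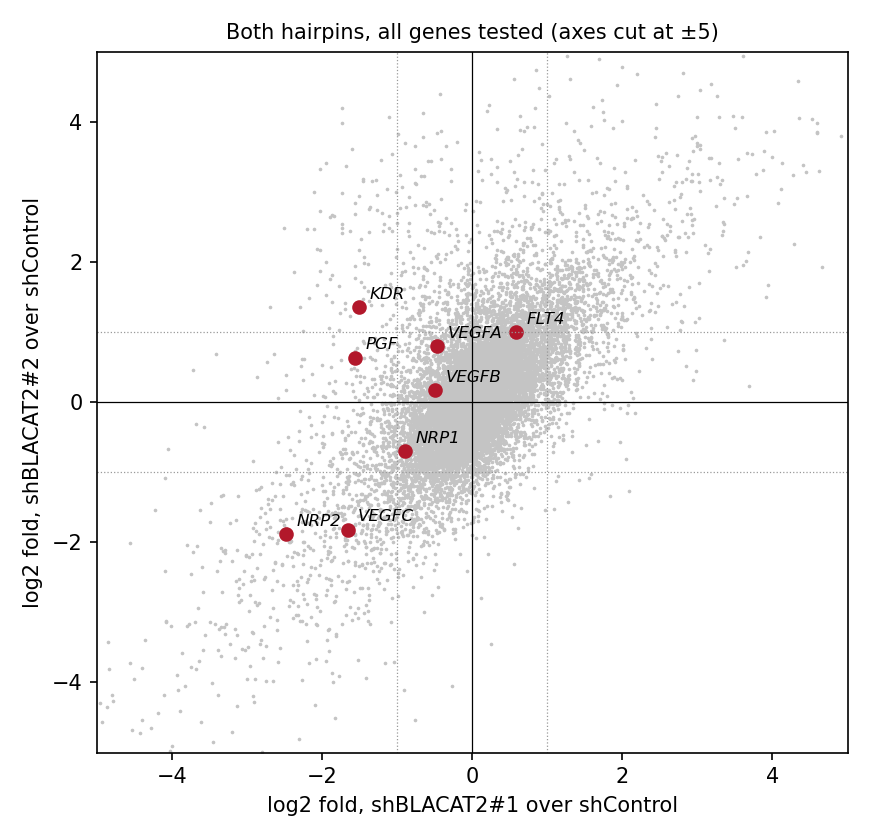
Log2 fold over shControl with shBLACAT2#1 (x axis) and shBLACAT2#2 (y axis) for all 15132 genes tested (grey) and the 8 tested members (red), with dotted lines at 2-fold. NRP2 and VEGFC lie below both lower lines, KDR, PGF, VEGFA and VEGFB lie left of 0 and above 0, and 61 genes beyond 5 on either axis are not drawn.

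The hairpin libraries themselves differed by at least 2-fold for 3 members, all higher with shRNA 2, against 12.8% of all genes in either direction and 8.35% higher with shRNA 2. KDR was 10.7 times higher (interval 3.86 to 41.0), PGF 4.76 times (3.37 to 6.88) and VEGFA 2.41 times (2.24 to 2.59). NRP2 was 1.53 times higher with shRNA 2 (1.26 to 1.85) and FLT4 1.34 times (1.03 to 1.76). The intervals of VEGFC and NRP1 (ratio 1.14, interval 0.990 to 1.32) included no difference. Each hairpin has 1 library, so these values have no replicate check.

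The levels of different genes within a library were compared per length, and the length used mattered. Deposited FPKM values (fragments per kilobase of gene, scaled for library depth) put VEGFC far above VEGFA in the control, at 29.6 against 2.69, although their counts were 1205 and 1226. The lengths that the FPKM values imply were 2480 bases for VEGFC and 27766 for VEGFA, and VEGFA spans 16304 bases in the genome. For 86.5% of 12212 genes with over 50 counts, the implied length was within 1% of the sum of all distinct annotated exon records of GENCODE release 29, in which overlapping exons of different transcripts count more than once. VEGFC, VEGFB, PGF, FLT4, NRP1 and NRP2 are among these genes, while VEGFA, with 24746 bases of such records, is not. The exons merged without overlap matched for 7.57% of genes, and the implied length was 1.55 times the merged length at the median. It was 1.92 times for VEGFA, 1.79 for VEGFB, 1.70 for PGF, 1.53 for NRP1, 1.45 for NRP2 and 1.02 for VEGFC. FPKM levels of genes with many overlapping exon records are therefore lowered against those of VEGFC. Ligand and neuropilin shares, ratios of ligands to receptors and the ratio of VEGFC to VEGFA are given on more than 1 length. The receptor shares, the order of all members and the percentiles are read on FPKM and hold for that length only.

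On deposited FPKM, VEGFC gave 67.2% of the summed ligand level in the control, and 48.2% and 31.4% in the hairpin libraries. Per kilobase of merged exons its share was 53.7%, 34.4% and 20.5%. Per kilobase of the longest transcript that GENCODE pairs with a RefSeq mRNA, a length chosen after these values were seen, it was 43.2%, 25.8% and 13.0%. Its share was largest in the control and smallest with shRNA 2 on each of these lengths. VEGFB took 25.3%, 40.7% and 47.3% of the ligand level by FPKM, and 27.1%, 36.4% and 32.6% on RefSeq-paired lengths. VEGFA took 6.11%, 10.1% and 17.7% by FPKM, and 25.7%, 35.3% and 47.8% on RefSeq-paired lengths. VEGFC led the ligands in the control on these 3 lengths, and with shRNA 2 it stood behind VEGFB on all 3. On the principal transcript of the APPRIS annotation, only 1199 bases long for VEGFA and also chosen after the values were seen, VEGFA and not VEGFC led in the control, and VEGFC took 28.8%, 15.3% and 6.74%.

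**Figure D4:**
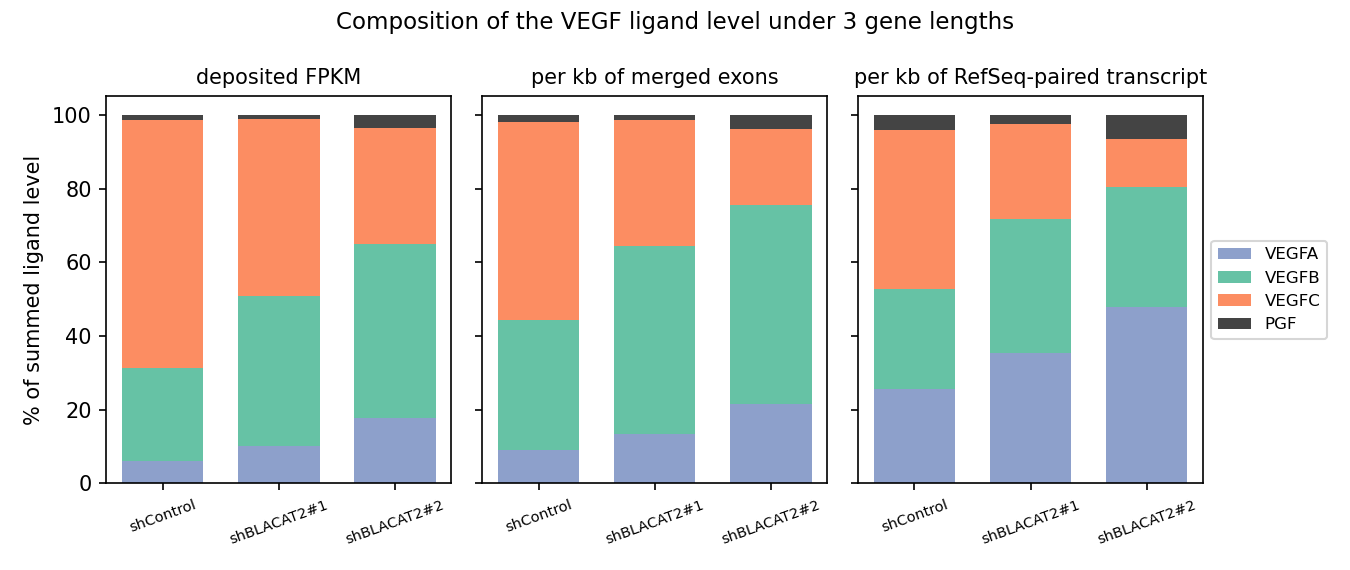
Share of each ligand (%) in the summed ligand level of each library, on deposited FPKM, per kilobase of merged exons and per kilobase of the RefSeq-paired transcript. The VEGFC share is largest in shControl on each length (67.2%, 53.7% and 43.2%) and smallest in shBLACAT2#2, while the VEGFA share depends strongly on the length.

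The ratio of VEGFC to VEGFA levels in the control was 11 by FPKM, 5.86 on merged exons and 1.68 on RefSeq-paired lengths. With shRNA 1 it was 4.78, 2.55 and 0.732, and with shRNA 2 it was 1.78, 0.948 and 0.272. Whether VEGFC or VEGFA was the more abundant RNA in a hairpin library thus depended on the length, while the change of the ratio did not. As counts, which need no length for this, the ratio of VEGFC to VEGFA was 2.30-fold lower than in the control with shRNA 1 (0.435 of it, interval 0.379 to 0.498) and 6.18-fold lower with shRNA 2 (0.162 of it, interval 0.141 to 0.185). The ratio of VEGFC to VEGFB was 2.25-fold lower (0.445, interval 0.376 to 0.527) with shRNA 1, and with shRNA 2 it lay in an interval of 0.212 to 0.294 of the control.

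KDR and FLT1 were the least abundant members by FPKM in every library. On that length FLT4 stood below PGF in the control and with shRNA 2 but above it with shRNA 1 (0.476 against 0.224). On RefSeq-paired lengths FLT4 stood below PGF in every library, with overlapping intervals for shRNA 1 (0.966 against 1.17). By FPKM, FLT4 had 0.287, 0.476 and 0.669, KDR 0.115, 0.0329 and 0.367, and FLT1 0.0472, 0.0319 and 0.0174 in shControl, shRNA 1 and shRNA 2. FLT4 gave 63.9%, 88.0% and 63.5% of the summed receptor level. The summed ligand level was 98.1, 39.3 and 29 times that of the receptors by FPKM and 102, 44.6 and 49.0 times on RefSeq-paired lengths. Of the neuropilins, NRP2 gave 56.8% of their summed FPKM in shControl and 30.2% and 36.7% in the hairpin libraries. NRP2 was thus the more abundant neuropilin RNA in the control, and NRP1 in both hairpin libraries. The same held on merged exons (55.5%, 29.1% and 35.4%).

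In order of FPKM the control read VEGFC, VEGFB, VEGFA, NRP2, NRP1, PGF, FLT4, KDR and FLT1. The counting intervals of VEGFA and NRP2 (2.69 and 2.64 FPKM) overlapped there, as did those of KDR and FLT1. On RefSeq-paired lengths VEGFA (21.1) stood above NRP2 (7.95) in the control without overlap. With shRNA 1 VEGFC (10.2) and VEGFB (8.67) overlapped at the top. With shRNA 2 VEGFB (14.4) stood above VEGFC (9.60) without overlap. Among all genes with a count, VEGFC was at the 97.0th percentile of FPKM in the control and at 88.2 and 87.4 with the hairpins. VEGFB was at 89.7, 85.9 and 92.2, and VEGFA at 69.7, 64.7 and 78.9. Intervals cover counting error only and not the spread between cultures, since the control and each hairpin have 1 library. Reads carry no molecular identifiers, so duplicate copies of 1 molecule could not be set aside.

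Other genes of VEGF signalling were taken from 7 lists of 96 genes, of which 86 were tested. By size, 9 of them (10.5%) lay below the control with both hairpins and 4 (4.65%) above it, against 4.5% and 5.29% of all genes. The medians were −0.21 and −0.15. edgeR's test passed none of the 86 over all genes, and 15 had an unadjusted p below 0.05, against 10.2% of all genes. DESeq2 passed 9 of the 86, against 3.51% of all genes.

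Genes that process VEGFC before it can act lay on both sides of the control. CCBE1, the secreted cofactor of VEGFC cleavage, had 937, 526 and 151 counts (log2 folds −1.07 and −2.80). PCSK5, a proprotein convertase, had 32, 456 and 144 counts (3.52 and 1.93). Of the 8 tested genes of this list 1 was lower and 1 higher by size with both hairpins, against 4.5% and 5.29% of all genes. These counts are too small to set the list apart from all genes. Their median log2 folds were −0.60 and 0.02. CCBE1 thus had less RNA than the control in the same libraries as VEGFC, and PCSK5 more.

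Neuropilin ligands and partners also differed by gene. Class 3 semaphorins compete with or act beside VEGF ligands at neuropilins. Of 6 tested, 2 were higher by size with both hairpins and none lower, against 5.29% and 4.5% of all genes. SEMA3D had 36, 562 and 501 counts (log2 folds 3.66 and 3.55, edgeR log2 fold 3.66, SE 0.45, adjusted p = 0.0766). SEMA3A had 80, 353 and 274 (1.88 and 1.57). PLXND1, a plexin receptor of semaphorins, had 1044, 291 and 361 counts (−2.08 and −1.71). It was the 1 of 11 tested plexins and neuropilin partners past the size, against 9.79% of all genes. The medians were 0.41 and 1.52 for the semaphorins and −0.49 and −0.14 for the partners. The summed level of the semaphorins was 238, 215 and 368 CPM, most of it from SEMA3C (2732, 1603 and 2899 counts) in the control.

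Few genes of receptor signalling and of oxygen sensing passed the size with both hairpins, as among all genes, of which 9.79% did. Of 36 genes of VEGF receptor signalling, 34 were not past the size with both hairpins, and the medians were −0.11 and −0.35. PTPRB, a receptor phosphatase of endothelium, had 1021, 302 and 377 counts (−1.99 and −1.62), and the nitric oxide synthase NOS3 had 12, 52 and 308 (1.73 and 4.30). Of 16 tested genes of oxygen sensing and VEGFA transcription, ETS1, a transcription factor, had 6755, 2778 and 2870 counts (−1.52 and −1.42). EGLN3, an oxygen-sensing hydroxylase that HIF induces, had 138, 68 and 28 (−1.24 and −2.40). No gene of that list was higher by size, against 5.29% of all genes. The median of that list was −0.19 with shRNA 1 and −0.07 with shRNA 2. VEGFA, which HIF also induces, was 0.724 and 1.74 of the control, so EGLN3 and VEGFA were on the same side of the control with shRNA 1 only. A part of HIF in either change was not tested.

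Other vessel growth factors and their receptors had medians of −2.34 and −1.14 over 9 tested genes. With both hairpins 4 of them were lower by size and none higher, against 4.5% and 5.29% of all genes. PDGFB, a growth factor of pericytes, had 3186, 715 and 500 counts (−2.40 and −2.85), and PDGFC had 1058, 245 and 185 (−2.34 and −2.69). ANGPTL4, a secreted inhibitor of lipoprotein lipase, had 449, 74 and 14 (−2.81 and −4.997), and the orphan receptor gene TIE1 had 55, 10 and 12 (−2.47 and −2.20). The other 5 were not past the size with both hairpins. PDGFA (−0.57 and −0.84), FGF1 (−4.06 and −0.67) and EGFL7 (−0.28 and −0.17) were below the control with both. PDGFD had opposite signs (0.24 and −1.14), and FGF2 was above the control with both (0.30 and 1.85).

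The genes with the most similar pair of log2 folds were found among 9803 coding genes that averaged 10 CPM or more, by the distance between pairs over the same 2 contrasts. For VEGFC these were NEURL1B (2255, 834 and 733 counts, distance 0.0226), PRKCDBP (668, 249 and 209, distance 0.0296) and JUN (2704, 989 and 842, distance 0.0527). Within a distance of 0.25 lay 23 genes for VEGFC and 12 for NRP2. NRP2 had DSP (71458, 15307 and 21490, distance 0.0425), PMEPA1 (0.111) and KCNJ15 (0.130). NRP1 had HIPK2, SLC35E3 and DAPK3, VEGFA had ZNF777, DNAJB9 and NLRC5, and VEGFB had C8orf33, NFKB2 and SH3RF2. Around NRP1, VEGFA and VEGFB, 128, 57 and 291 genes lay within 0.25. These are likenesses over 3 libraries that share 1 control.

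Chromosomal neighbours passed the size at about the share of all genes. Of the 18 nearest tested coding genes on either side of the 9 genes, chosen by position alone, 1 was lower and 1 higher by size with both hairpins, against 4.5% and 5.29% of all genes. ITGB1, an integrin subunit 172 kb from NRP1, had 39642, 19796 and 13720 counts (−1.24 and −1.72). PARD3B, 61.8 kb from NRP2, had 12, 77 and 119 (2.28 and 2.95) and stood above the control where NRP2 stood below it. Beside VEGFC, SPCS3 (351 kb away) had log2 folds of −0.49 and −0.67, and NEIL3 (517 kb away) 0.12 and −0.72. Beside PGF, RPS6KL1 had −0.75 and 0.25 and EIF2B2 −0.05 and −0.09. Beside VEGFB, DNAJC4 had −0.18 and 0.08 and FKBP2 −0.10 and −0.51. RPS6KL1 and DNAJC4 had the signs of those members, and EIF2B2 and FKBP2 were below the control with both hairpins. The counting intervals of DNAJC4 with both hairpins and of RPS6KL1 with shRNA 2 included the control level.

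Markers of other cell types were read because the receptors and neuropilins are also endothelial genes. Of 12 blood endothelial markers 5 had at least 10 counts in every library, and the summed level of the list was 109, 84.4 and 69.5 CPM. Most of it came from ENG (1349, 1305 and 839 counts). PECAM1 had 4, 9 and 4 counts, VWF 2, 4 and 13, and EMCN none. Lymphatic markers summed to 26.1, 2.95 and 5.62 CPM, with PDPN at 358, 27 and 32 counts and no count of LYVE1 or MMRN1. Other markers of the 2 lists were counted: ROBO4 had 155, 39 and 152 counts, CDH5 18, 42 and 66, and MMRN2 9, 69 and 53. TIE1 (55, 10 and 12), ERG (29, 3 and 12), PROX1 (29, 10 and 10) and PDPN were highest in the control, as VEGFC and NRP2 were. The lymphatic marker RELN (5, 16 and 55, log2 folds 1.17 and 2.88) and the blood endothelial marker CLDN5 (2, 5 and 15) were lowest in the control. Fibroblast and pericyte markers summed to 27.6, 11.1 and 27.1 CPM, with COL1A2 at 16, 0 and 1 counts and COL3A1 at 20, 0 and 1. PDGFRB (152, 15 and 31) was also highest in the control. ACTA2 (38, 38 and 107), CSPG4 (142, 91 and 256) and RGS5 (18, 34 and 41) were instead highest with shRNA 2. Leukocyte markers summed to 102, 16.1 and 48.7 CPM, mainly CSF1R (1496, 263 and 518 counts) and, with shRNA 2, ITGAM (19, 6 and 288), with PTPRC at 0, 3 and 4 counts and none of CD68. Their part in the results was not tested. In bulk RNA, fewer cells of a type and less RNA per cell cannot be told apart.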

How the data were processed

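PolyA+ RNA of UM-UC-3 cells was sequenced in 3 libraries prepared with a stranded mRNA kit, per the labels' protocols. The authors deposited whole-number read counts and FPKM per gene. TopHat2 2.0.9 and hg38 were used, per the submitters' processing notes. The counting tool, its strand setting and the annotation release were not given in the sources read here. The row of 1 gene, broken over 4 lines, was left out, which left 50867 genes. Identifiers of 98.5% were found in GENCODE release 29, which supplied gene types and lengths.

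The 15132 genes that averaged 1 CPM or more were scaled with TMM factors (0.924, 1.02 and 1.06) and tested with edgeR 4.0.16, with DESeq2 1.42.0 and limma 3.58.1 as alternatives. Log2 folds use a prior count of 2. Ratios use scaled counts without a prior count and have exact conditional binomial intervals at the 95% level. Ratios of 2 genes' counts have log-normal counting intervals. A gene passed by size when both log2 folds were at least 2-fold in 1 direction. The script was tested on simulated data. The members, lists and tests were chosen with earlier results of these data known. From each pathway list up to 4 genes past the size were named, those with the largest smaller fold first. Likeness was the Euclidean distance between pairs of log2 folds, with 3 genes named for each member of at least 10 CPM. Promoters came from RefSeq on GRCh38.p14.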

Additional observations from a re-analysis of the deposited data

Results flagged for a closer look

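Members whose ratio to the control lay on opposite sides with the hairpins, each beyond its counting interval, were VEGFA, VEGFB, PGF and KDR. The difference between the hairpins was not tested, since each has 1 library. VEGFA had log2 folds of −0.46 with shRNA 1 and 0.80 with shRNA 2. VEGFB had −0.50 and 0.17, and the lower bound of its ratio with shRNA 2 was 1.00. PGF had −1.56 and 0.63. KDR had −1.51 and 1.35 on 13, 4 and 41 counts.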

How the results depend on the processing

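The number of genes passing edgeR's adjusted test was 6. It was 0 without a filter, 0 with a filter at a mean of 5 CPM, 531 with DESeq2 (238 higher and 293 lower) and 0 with limma (1424 at an unadjusted p below 0.05). Members passing went from 0 to 2 with DESeq2. Genes at least 2-fold away with both hairpins numbered 1481, with 2805 unfiltered, 979 at 5 CPM and 2315 to 3287 when 1 hairpin library was left out. Higher genes numbered 800, with 1280 unfiltered and 1199 to 1962 leaving out a library, and lower genes 681, with 1525, 443 (at 5 CPM) and 1116 to 1325. Members lower were 2, and 2 to 4 leaving out a library (4 without shRNA 2, PGF and KDR added). Members higher were 0, and 0 to 1 leaving out a library (1 without shRNA 1, KDR). Scaling by library totals moved the median of all genes by 0.14 and 0.20 (log2). It turned the group log2 fold of VEGFB to 0.054 and of PGF to 0.11, brought VEGFA with shRNA 2 to 1.00, and split the calls by size into 1030 higher and 553 lower. limma turned KDR to −0.21.

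The VEGFC share of ligand levels in control, shRNA 1 and shRNA 2 was 53.7%, 34.4% and 20.5% on merged exons, 28.8%, 15.3% and 6.74% on principal transcripts and 43.2%, 25.8% and 13.0% on RefSeq-paired transcripts. The ratio of VEGFC to VEGFA was 5.86, 2.55 and 0.948, then 0.571, 0.248 and 0.0923, then 1.68, 0.732 and 0.272. The NRP2 share of neuropilins on merged exons was 55.5%, 29.1% and 35.4%. No paired analysis was possible because the control group has 1 library. The depth limits FLT1 and KDR, with at most 11 and 41 counts. With 1 control library, a difference of that culture from the hairpin cultures cannot be told apart from an effect of the hairpins.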
